A study of Mus musculus with 8 samples.

Results

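The genes described here are 10 markers of the vessel wall of the brain, measured in the cerebral cortex of 8 mouse embryos. They were taken by name: Cldn5, Cdh5, Pecam1, Kdr, Flt1 and Tek for endothelial cells, which line the vessels, and Rgs5, Abcc9, Pdgfrb and Cspg4 for pericytes, the mural cells wrapped around capillaries. All 10 were among the 27179 genes of the deposited count table. The comparison was between 4 Taf8-deleted embryos, of the genotype Taf8 -/lox (a null allele over a loxP-flanked allele), and 4 Taf8-intact embryos, of the genotype Taf8 +/+. Each library came from a different embryo. The sources used here give neither the embryonic stage nor the strain nor the recombinase that acts on the loxP sites. Whether vessel cells themselves also lost the loxP-flanked allele is therefore not known from them. By the genotype, all cells of the deleted embryos carry the null allele, and those of the intact embryos do not. The intact animals were numbered 408.4, 408.5, 408.6 and 409.2 and the deleted animals 456.1, 472.1, 477.1 and 486.1. The labels do not say what these numbers mark, no number before the point is shared by both groups, and the genotype and whatever they mark cannot be told apart.

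Vessels grow into the embryonic cortex from the plexus at its surface, guided by vascular endothelial growth factor (VEGF) made by neural cells, and the endothelium acquires barrier properties there under Wnt7 signals from neural progenitors. Endothelial cells secrete PDGF-B, which recruits pericytes through the receptor encoded by Pdgfrb, and pericytes in turn supply angiopoietin 1 to the endothelial receptor encoded by Tek. The product of Taf8 is part of TFIID, the complex that binds core promoters and brings RNA polymerase II to them.

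Library totals ranged from 39590959 to 44788200 counts. Taf8 was at 32.6 ± 2.07 CPM (counts per 1000000 counts of the library, its size scaled by the TMM factor of edgeR, which adjusts for composition) in the intact and 0.495 ± 0.187 CPM in the deleted libraries (SD, n = 4 each), so that every library had the level of its label. All 9 cortical tissue markers examined were present in all libraries, but most were at lower levels after the deletion. Of the 9, 7 fell and 1 rose (median log2 fold change -0.40), and their summed level was 2765 to 2898 CPM in the intact against 1873 to 2026 CPM in the deleted libraries. The libraries are bulk samples, in which a change in the number of vessel cells and a change in RNA per cell cannot be told apart.

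All 10 vessel genes rose in Taf8-deleted cortex, by 1.15-fold to 1.46-fold. The median log2 fold change was 0.33 for the 10 genes and 6.53e-05 for the 16074 genes tested, a value that the TMM scaling holds near 0. Beside these 10 of 10 stands the background: of all genes tested, 63.5% were called by the quasi-likelihood test of edgeR at an adjusted p under 0.05, 30.6% rising and 32.9% falling. For 7 of the 10, every deleted library lay above every intact library. The groups were apart in this sense for 57.7% of all genes tested, with the deleted libraries higher for 27.6% and lower for 30.1%. The rises were largest for the pericyte genes Rgs5 and Abcc9 and the endothelial junction genes Cldn5 and Cdh5, and smallest for Pecam1, Cspg4 and Pdgfrb. The calls of those last 3 genes could be lost by leaving out 1 library, as given with each gene below.

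**Figure D1:**
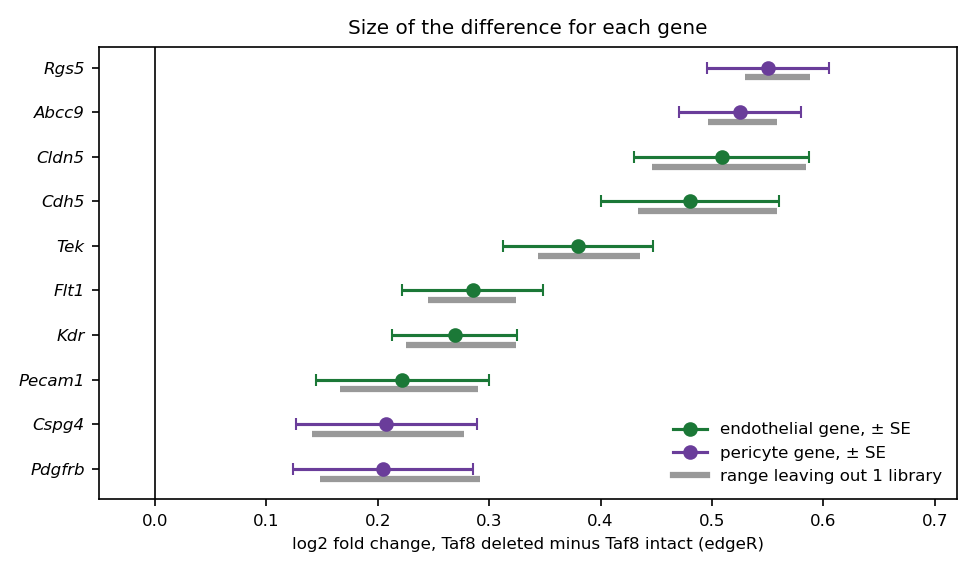
Log2 fold change of each of the 10 genes, Taf8-deleted minus Taf8-intact, from edgeR (points, with bars of 1 SE), with the range of the value when each of the 8 libraries was left out in turn (grey). Rgs5 and Abcc9 are highest at 0.55 and 0.53, Pdgfrb and Cspg4 lowest at 0.20 and 0.21, and all ranges stay above 0.

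Promoter windows are shown for 4 of the genes because TFIID acts at these stretches. The rises of the 4 genes ranged from that of Kdr to that of Rgs5, the largest of the 10. Each is the 250 bases before an annotated start site on the gene's own strand, from RefSeq on GRCm38.p6. They lie at chr16:18776597-18776846 on the plus strand for Cldn5, chr5:147726012-147726261 on the minus strand for Flt1, chr5:75978456-75978705 on the minus strand for Kdr and chr1:169655251-169655500 on the plus strand for Rgs5. The RefSeq genes of Kdr and Flt1 reach further, to 75979072 and 147726438. Their windows thus stand before an inner start site and lie within the annotated gene. Capitals mark every match, on either strand, to 1 of 8 short motifs. For core promoters the search used TATAAA as the TATA box, GGGCGG as the GC box and CCAAT as the binding motif of NF-Y. For factor families it used AGGAAG for ETS proteins, AGATAA for the zinc finger proteins of the Gata family, ACAATG for SOX proteins, CTTTGA for TCF and LEF proteins and NACGTG for hypoxia-inducible factors.
Cldn5: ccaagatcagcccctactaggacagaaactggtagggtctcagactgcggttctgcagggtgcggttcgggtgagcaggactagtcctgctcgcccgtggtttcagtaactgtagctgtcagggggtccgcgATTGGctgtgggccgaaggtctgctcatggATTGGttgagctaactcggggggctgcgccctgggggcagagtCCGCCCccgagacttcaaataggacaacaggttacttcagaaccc
Flt1: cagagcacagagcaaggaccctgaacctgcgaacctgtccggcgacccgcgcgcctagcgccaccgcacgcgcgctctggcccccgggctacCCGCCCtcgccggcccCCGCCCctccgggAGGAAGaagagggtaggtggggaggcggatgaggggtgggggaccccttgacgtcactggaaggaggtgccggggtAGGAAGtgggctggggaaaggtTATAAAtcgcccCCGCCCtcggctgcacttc
Kdr: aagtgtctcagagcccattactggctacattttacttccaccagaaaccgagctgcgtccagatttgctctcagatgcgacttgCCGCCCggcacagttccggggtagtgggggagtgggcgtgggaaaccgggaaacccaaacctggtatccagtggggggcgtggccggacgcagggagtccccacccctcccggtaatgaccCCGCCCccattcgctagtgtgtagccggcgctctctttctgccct
Rgs5: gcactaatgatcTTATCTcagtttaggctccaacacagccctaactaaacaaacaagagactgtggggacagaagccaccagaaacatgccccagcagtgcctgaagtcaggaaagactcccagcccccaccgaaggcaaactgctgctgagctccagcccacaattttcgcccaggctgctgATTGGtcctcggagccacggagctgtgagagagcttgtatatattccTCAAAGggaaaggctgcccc

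The windows differed in the motifs they held. A TATAAA was present in Flt1 alone among the 7 vessel genes with a window in the table, from 31 to 26 bases before the start, and in 12.4% of all 32851 windows. A GC box was present in 5 of the 7 windows (Cldn5, Kdr, Flt1, Abcc9 and Cspg4) and in 32.7% of all windows. CCAAT was present in Cldn5, with 2 matches, and in Rgs5, with 1, and in 33.8% of all windows. AGGAAG, the core of the ETS motif with flanking bases, was present in Flt1 alone, with 2 matches, and in 29.5% of all windows. ETS proteins are a factor family active in endothelium, and their shorter core without these flanks was not searched for. The window of Tek held none of the 8 motifs. The Abcc9 window, like those of Kdr and Flt1, lay within its RefSeq gene, and the Tek window did so in part. No 2 matches overlapped. The GC content was 53.6% in Rgs5, 59.6% in Cldn5, 61.6% in Kdr and 70.4% in Flt1, against a median of 52.4% over all windows. These matches describe the letters of the windows, and no motif was common to all 7 genes.

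Cldn5 and Cdh5 encode the adhesion proteins of endothelial junctions: claudin-5 seals the tight junctions of the blood-brain barrier and VE-cadherin forms the adherens junctions. Cldn5 (gene ID 12741, chromosome 16, 18776847 to 18778262 in GRCm38) was at 22.6, 22.3, 23.6 and 23.0 CPM in the intact and at 30.7, 34.4, 37.4 and 27.8 CPM in the deleted libraries, in the order of replicates 1 to 4. All deleted libraries were above all intact ones, with replicate 3 highest and replicate 4 lowest among the deleted. The log2 fold change was 0.51 ± 0.08 (SE), or 1.42-fold (edgeR, p adjusted by Benjamini and Hochberg's method over all genes tested = 0.000145). Cdh5 (gene ID 12562, chromosome 8, 104101613 to 104144504) was at 21.7, 21.8, 19.9 and 23.7 CPM in the intact and at 30.9, 31.0, 33.9 and 25.7 CPM in the deleted libraries. The groups were again apart, and the same deleted replicates were highest and lowest. Cdh5 rose by 0.48 ± 0.08 on the log2 scale, 1.39-fold (edgeR adjusted p = 0.000258).

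Pecam1 encodes CD31, an adhesion molecule of endothelial cell contacts that is also made by some blood cells. Pecam1 (gene ID 18613, chromosome 11, 106654213 to 106715281) was at 23.6, 27.5, 21.3 and 26.0 CPM in the intact and at 27.3, 29.6, 31.1 and 26.8 CPM in the deleted libraries. The groups overlapped, since intact replicate 2 was above deleted replicates 1 and 4. The rise was 0.22 ± 0.08 (SE) on the log2 scale, 1.17-fold (edgeR adjusted p = 0.0254). Leaving out 1 library ended the call of Pecam1 for intact replicate 1, deleted replicate 2 and deleted replicate 3, with adjusted p of 0.0646, 0.0585 and 0.0675. Over all 21 alternative analyses the adjusted p of Pecam1 ran from 0.00645 to 0.243.

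Kdr and Flt1 encode the VEGF receptors VEGFR2, the main signalling receptor of angiogenesis, and VEGFR1, which binds VEGF tightly and whose soluble form acts as a decoy. Kdr (gene ID 16542, chromosome 5, 75932827 to 75979072) was at 44.9, 45.6, 44.6 and 45.1 CPM in the intact and at 56.1, 51.9, 60.2 and 48.8 CPM in the deleted libraries. The intact libraries lay close together, and every deleted library was above them. Kdr rose by 0.27 ± 0.06 (SE) on the log2 scale, 1.20-fold (edgeR adjusted p = 0.00117). Flt1 (gene ID 14254, chromosome 5, 147561604 to 147726438) was at 13.5, 15.0, 14.3 and 13.8 CPM in the intact and at 17.1, 16.6, 19.0 and 16.3 CPM in the deleted libraries. The groups did not overlap, and Flt1 rose by 0.29 ± 0.06, 1.22-fold (edgeR adjusted p = 0.00173). The level of Flt1 relative to Kdr, both taken per length as CPM per kilobase of the gene's exons (FPKM), was 0.262 to 0.286 in the intact and 0.265 to 0.290 in the deleted libraries, which overlap. Counts cover the whole gene, so the soluble and the membrane form of the Flt1 product were not separated.

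Tek encodes TIE2, the angiopoietin receptor that stabilises vessels. Tek (gene ID 21687, chromosome 4, 94739086 to 94874976) was at 9.81, 10.2, 10.2 and 10.4 CPM in the intact and at 13.1, 14.3, 13.5 and 11.9 CPM in the deleted libraries. All deleted libraries were above all intact ones, and deleted replicate 2 was the highest here in place of replicate 3. Tek rose by 0.38 ± 0.07 (SE) on the log2 scale, 1.30-fold (edgeR adjusted p = 0.000341). Tie1, which encodes the partner receptor of TIE2, rose by 0.30 ± 0.08 (edgeR adjusted p = 0.00436), and the FPKM ratio of Tek to Tie1 was 0.361 to 0.366 in the intact and 0.343 to 0.416 in the deleted libraries.

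Rgs5 and Abcc9 had the largest rises of the set. Rgs5 encodes a regulator of G protein signalling that marks pericytes, and Abcc9 the SUR2 subunit of the ATP-sensitive potassium channel of mural cells. Rgs5 (gene ID 19737, chromosome 1, 169655501 to 169695813) was at 16.0, 15.1, 15.0 and 15.5 CPM in the intact and at 23.3, 21.8, 24.0 and 21.1 CPM in the deleted libraries. All deleted libraries were far above all intact ones. Rgs5 rose by 0.55 ± 0.06 (SE) on the log2 scale, 1.46-fold (edgeR adjusted p = 3.1e-06). Abcc9 (gene ID 20928, chromosome 6, 142587862 to 142702766) was at 25.1, 24.8, 24.8 and 22.4 CPM in the intact and at 36.4, 32.8, 37.0 and 33.6 CPM in the deleted libraries, again with no overlap. It rose by 0.53 ± 0.05, 1.44-fold (edgeR adjusted p = 4.38e-06). Abcc9 shares 158 exonic bases with 5330439B14Rik on the opposite strand, whose reads cannot be told apart from its own in unstranded data. Kcnj8, chosen after its values were seen, which encodes the pore subunit Kir6.1 of the same channel, was at 5.82 ± 0.152 CPM in the intact and 8.05 ± 0.515 CPM in the deleted libraries (SD, n = 4 each) and rose by 0.47 ± 0.07. The FPKM ratio of Abcc9 to Kcnj8 was 1.08 to 1.28 in the intact and 1.12 to 1.36 in the deleted libraries.

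Pdgfrb and Cspg4 had the smallest rises. Pdgfrb encodes the PDGF-B receptor of pericytes, and Cspg4 the NG2 proteoglycan, which pericytes share with oligodendrocyte precursors. Pdgfrb (gene ID 18596, chromosome 18, 61045127 to 61085067) was at 27.5, 29.3, 29.5 and 29.9 CPM in the intact and at 35.1, 33.1, 37.9 and 27.7 CPM in the deleted libraries. Deleted replicate 4 lay within the intact libraries and the other 3 above them. Pdgfrb rose by 0.20 ± 0.08 (SE) on the log2 scale, 1.15-fold (edgeR adjusted p = 0.0445). The call was lost when any 1 library other than deleted replicate 4 was left out (adjusted p up to 0.0966), and without deleted replicate 4 the adjusted p was 0.000621. Cspg4 (gene ID 121021, chromosome 9, 56865104 to 56899870) was at 11.2, 11.5, 11.3 and 11.2 CPM in the intact and at 13.4, 12.4, 15.1 and 11.3 CPM in the deleted libraries. Here too only deleted replicate 4 lay within the intact range. Cspg4 rose by 0.21 ± 0.08, 1.15-fold (edgeR adjusted p = 0.0406), and the call was lost without any 1 of the 4 intact replicates, deleted replicate 1 or deleted replicate 3 (adjusted p up to 0.110). With the replicate number of the labels as a block, the calls of both were lost as well (adjusted p = 0.0621 for Pdgfrb and 0.0579 for Cspg4).

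**Figure D2:**
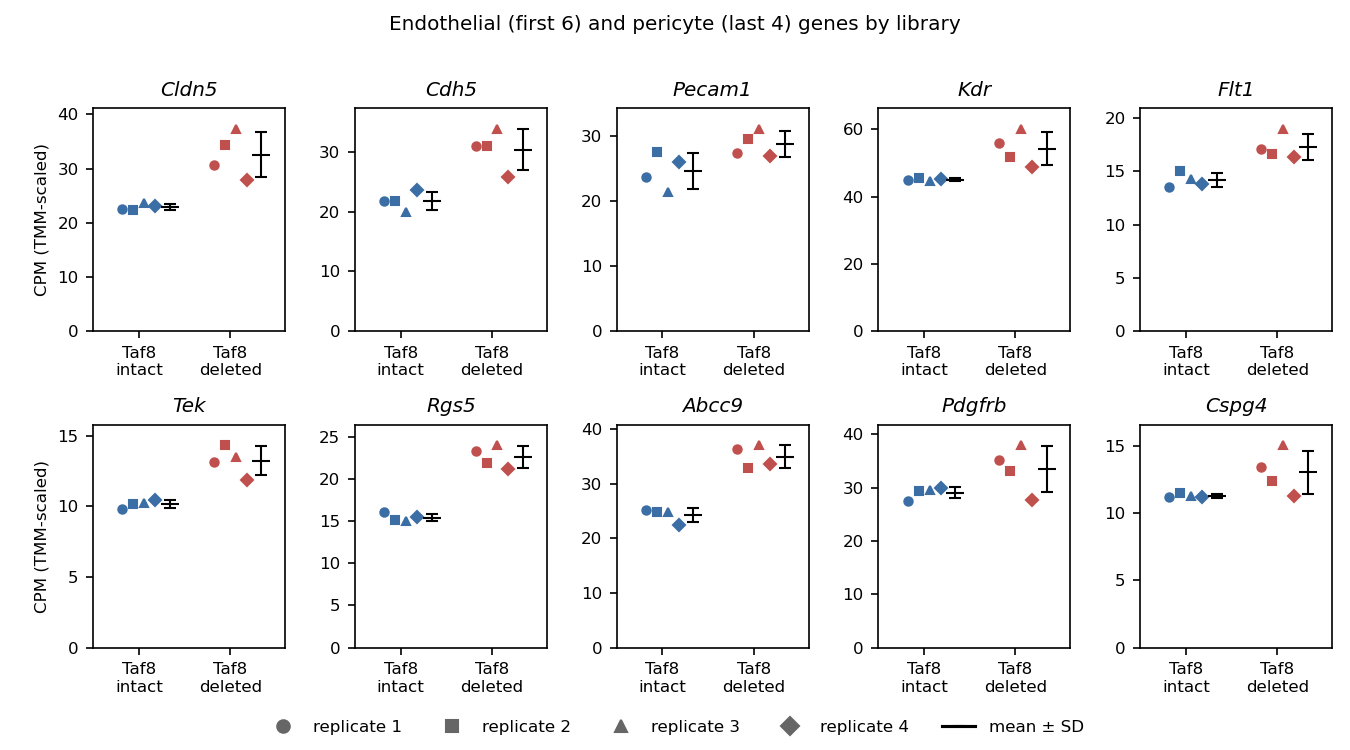
Level of each of the 10 genes in CPM scaled by TMM (vertical axis from 0) in the 4 Taf8-intact and the 4 Taf8-deleted libraries, with the mean ± SD. The groups are apart for 7 genes and overlap for Pecam1, Pdgfrb and Cspg4, and deleted replicate 4 is the lowest deleted library for 9 of the 10 genes.

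The pericyte genes thus moved by unequal amounts. The FPKM ratio of Rgs5 to Pdgfrb was 1.53 to 1.75 in the intact and 1.89 to 2.28 in the deleted libraries, with no overlap between the groups. Summed per length, the 4 pericyte genes stood at 18.5 to 18.7 FPKM in the intact and 22.7 to 27.1 FPKM in the deleted libraries, and the 6 endothelial genes at 40.8 to 42.8 and 48.3 to 61.2 FPKM. The ratio of the pericyte to the endothelial sum was 0.432 to 0.455 in the intact and 0.428 to 0.483 in the deleted libraries, so that the groups overlapped.

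Per length, Cldn5 was the highest of the 10 genes in intact cortex at 16.2 ± 0.410 FPKM (SD, n = 4). Rgs5 at 8.52 ± 0.257, Kdr at 8.25 ± 0.0767 and Pecam1 at 7.45 ± 0.824 FPKM followed, and each overlapped the next in its range over libraries. Cdh5 at 5.46 ± 0.390 and Pdgfrb at 5.37 ± 0.198 FPKM also overlapped each other. Abcc9 stood apart from its neighbours at 3.22 ± 0.168 FPKM, Flt1 and Tek overlapped at 2.25 ± 0.103 and 2.18 ± 0.0555 FPKM, and Cspg4 was lowest at 1.41 ± 0.0178 FPKM. In deleted cortex the first 7 genes kept this order and Tek, at 2.84 ± 0.219 FPKM, and Flt1, at 2.75 ± 0.193 FPKM, overlapped in the reverse order. In that group Rgs5, at 12.5 ± 0.726 FPKM, no longer overlapped Kdr, at 9.94 ± 0.908 FPKM.

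The deleted libraries were more spread than the intact ones for 9 of the 10 genes. The share of all genes for which this held was not computed, so it is not shown to be particular to vessel genes. The median coefficient of variation over the 10 genes was 3.35% among the intact and 8.43% among the deleted libraries. Kdr varied by 0.929% among the intact and by 9.13% among the deleted libraries, and Pecam1, the exception, by 11.1% and 6.88%. Deleted replicate 3 was the highest deleted library for 9 of the 10 genes and deleted replicate 4 the lowest for 9.

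Some markers of other cells were also called between the groups, beside 30.6% of all genes tested rising and 32.9% falling. The summed meningeal, blood, microglia and choroid plexus markers overlapped between the groups. The summed level of the cortical tissue markers was lower in every deleted library than in any intact one. Among the deleted libraries this sum was highest, at 2026 CPM, in replicate 4, where the vessel genes were mostly lowest. The summed level of 12 meningeal fibroblast markers was 83.8, 73.3, 75.3 and 119 CPM in the intact and 184, 226, 267 and 95.6 CPM in the deleted libraries, and 6 of the 11 tested rose while none fell. That count was 2 without intact replicate 1, 2 or 3 or deleted replicate 2 or 3, and 1 without deleted replicates 2 and 3 together or with the replicate block. With limma voom, with or without quality weights, it was 2 as well. Without intact replicate 4 and deleted replicate 1 together it was 3. Without deleted replicate 4 it was 9. The collagen gene Col3a1 among them, chosen after its values were seen, ranged from 5.98 to 12.2 CPM in the intact and from 8.25 to 62.2 CPM in the deleted libraries. The summed level of 9 blood cell markers, haemoglobin genes among them, was 138 to 188 CPM in the intact and 183 to 242 CPM in the deleted libraries, and 4 rose while none fell. That count was 0 without intact replicate 3, 1 without intact replicate 1 or deleted replicate 3, and 2 without intact replicate 2, deleted replicate 1 or deleted replicate 2. It was 2 with the replicate block, 0 without deleted replicates 2 and 3 together and 5 without deleted replicate 4. The sum of 10 microglia markers was 56.4 to 65.6 and 60.2 to 72.8 CPM, with 4 rises and 1 fall. There were 2 falls without intact replicate 3, 2 rises without deleted replicates 2 and 3 together and 5 rises without deleted replicate 4. The 6 choroid plexus markers, none of which was called except 1 without intact replicate 2, summed to 14.9 to 301 CPM in the intact and 14.9 to 929 CPM in the deleted libraries. No marker of these 5 lists was at 0 in all libraries, and Lum was at 0 in some. The part of these cells, and of the lower cortical sum, in the rise of the vessel genes was not tested. Among the deleted libraries, the summed endothelial genes were at 175, 178, 195 and 157 CPM in replicates 1 to 4, the same order as the meningeal sum. The summed pericyte genes were at 108, 100, 114 and 93.7 CPM, with replicates 1 and 2 in the other order. In deleted replicate 4 the meningeal, blood and microglia sums lay within the intact ranges. Its choroid plexus sum, at 14.88 CPM, was just under the lowest intact one, at 14.92 CPM. In that library 7 of the 10 vessel genes were above every intact library. The share of all genes for which this held was not computed. Without deleted replicates 2 and 3, which had the highest meningeal sums, 7 of the 10 rose, and their median log2 fold change over all 10 was 0.27. Of the 16375 genes tested in that setting, 4219 rose and 4666 fell. The exceptions among the 10 were Pecam1 (edgeR adjusted p = 0.243), Pdgfrb (edgeR adjusted p = 0.303) and Cspg4 (edgeR adjusted p = 0.225).

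**Figure D3:**
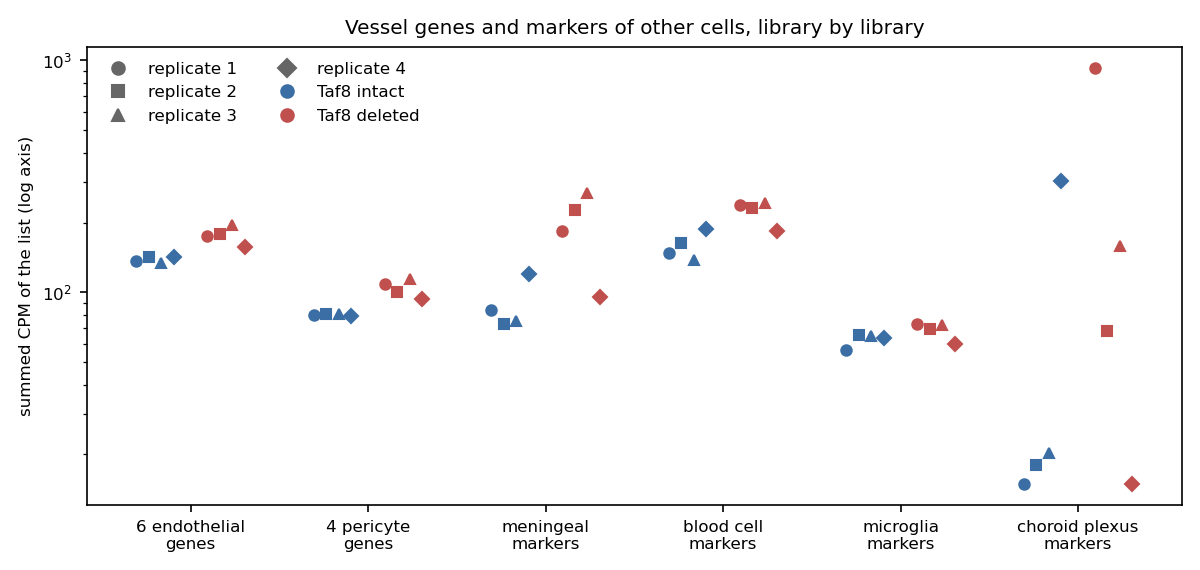
Summed CPM (log axis) of the 6 endothelial and 4 pericyte genes and of 4 lists of markers of other cells, 1 point per library. Deleted replicate 4 (red diamond) sits at 157 CPM for the endothelial genes, above the 134 to 142 CPM of the intact libraries, while its meningeal sum of 95.6 CPM lies within theirs.

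Among 22 other identity and junction genes of endothelium, 12 rose and 0 fell, and their median log2 fold change was 0.28. Egfl7, which encodes a secreted endothelial factor, rose by 0.33 ± 0.07 (SE), the junction gene Esam by 0.29 ± 0.07 and the sialomucin gene Cd34 by 0.25 ± 0.06. Mmrn2, which encodes an endothelial matrix glycoprotein, rose by 0.33 ± 0.08. Among 16 genes of barrier endothelium there were 8 rises and no falls (median 0.32). The lactate transporter gene Slc16a1 rose by 0.50 ± 0.06, from a mean of 38.4 ± 1.63 CPM to 54.5 ± 4.55 CPM (SD, n = 4). The transferrin receptor gene Tfrc rose by 0.41 ± 0.07, the membrane protein gene Itm2a by 0.38 ± 0.06 and the efflux pump gene Abcg2 by 0.32 ± 0.07 on the log2 scale. Several of these, such as Slc16a1 and Tfrc, are also made by other cells of the cortex. Without deleted replicates 2 and 3, 3 of the 22 identity and junction genes rose in place of 12, and 5 of the 16 barrier genes in place of 8. Egfl7 and Cd34 overlap other annotated genes.

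Other mural cell genes went both ways. Of 22, 11 rose and 3 fell, and the median log2 fold change was 0.31. The adhesion gene Mcam rose by 0.54 ± 0.05 (SE), from a mean of 40.7 ± 2.90 CPM to 59.0 ± 2.63 CPM (SD, n = 4), the Notch target Heyl by 0.70 ± 0.09 and the myosin light chain gene Myl9 by 0.57 ± 0.08. The 3 that fell, of which Gucy1a1 was chosen after its values were seen, were the soluble guanylate cyclase genes Gucy1a1 and Gucy1b1, by 0.41 ± 0.07 and 0.34 ± 0.05, and the transcription factor gene Ebf1, by 0.48 ± 0.07. The smooth muscle genes Acta2 and Myh11, chosen after their values were seen, were low, at 0.434 ± 0.381 and 0.456 ± 0.235 CPM in intact cortex, and were not called. Among 10 vascular basement membrane genes there were 5 rises and no falls (median 0.22), with 1 fall without deleted replicate 1 or 3. The nidogen gene Nid1 rose by 0.50 ± 0.06, the fibronectin gene Fn1 by 0.46 ± 0.05, and the collagen IV genes Col4a1 and Col4a2 by 0.44 ± 0.09 and 0.36 ± 0.09. Without deleted replicates 2 and 3, 7 of the 22 mural genes rose. Mcam, Gucy1a1, Nid1, Fn1, Col4a1 and Col4a2 overlap other annotated genes.

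The ligands and co-receptors around the VEGF receptors did not follow Kdr and Flt1. Of 8 other genes of the VEGF pathway, 5 fell and 0 rose, and the median log2 fold change was -0.37. Vegfa, the main ligand of VEGFR2, was at 76.0 ± 9.81 CPM in the intact and 74.7 ± 6.20 CPM in the deleted libraries (SD, n = 4 each), a difference of -0.03 ± 0.09 (SE; edgeR adjusted p = 0.832). The co-receptor gene Nrp1, which neurons also use for semaphorin signals, was at 135, 141, 151 and 141 CPM in the intact and at 59.2, 58.4, 60.9 and 62.4 CPM in the deleted libraries. All deleted libraries were under every intact one, and Nrp1 fell by 1.24 ± 0.04 (edgeR adjusted p = 6.96e-10). Nrp2 fell by 0.29 ± 0.06. The VEGFR1 ligand genes Vegfb and Pgf fell by 0.46 ± 0.06 and 0.58 ± 0.13, and Vegfd by 1.36 ± 0.28 from 0.665 ± 0.185 CPM. Flt4, the third VEGF receptor gene, and the ligand gene Vegfc were not called, at 0.14 ± 0.09 and -0.12 ± 0.13. Nrp1 overlaps another annotated gene.

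Around Tek, 3 of the 7 angiopoietin and apelin genes tested rose and 1 fell, with a median of 0.03. The fall was that of Angpt1, which overlaps another annotated gene and encodes the activating ligand of TIE2, by 0.30 ± 0.09 (SE) from 11.7 ± 1.47 CPM (SD, n = 4). Angpt2, the context-dependent ligand, differed by 0.03 ± 0.16 (edgeR adjusted p = 0.897). Ptprb, which encodes the phosphatase VE-PTP that acts on TIE2, rose by 0.31 ± 0.07, and the apelin receptor gene Aplnr by 0.58 ± 0.10, while the ligand gene Apln differed by -0.05 ± 0.20 (edgeR adjusted p = 0.831). Around Pdgfrb, Pdgfb was at 10.7 ± 1.41 CPM in the intact and 11.5 ± 1.20 CPM in the deleted libraries and was not called (edgeR adjusted p = 0.366). Of the 5 other PDGF genes 1 rose, Pdgfd, by 0.70 ± 0.25 from 0.397 ± 0.0990 CPM, and 1 fell, Pdgfra, by 0.48 ± 0.18, with a median of 0.04. Neither call was stable. Pdgfd lost its call in DESeq2 (adjusted p = 0.0626) and without intact replicate 1 or 4 or deleted replicate 3 (adjusted p up to 0.0848), and over its alternatives the adjusted p reached 0.170. Pdgfra lost its call without any 1 intact replicate or deleted replicate 1 or 2 (adjusted p up to 0.139). Pdgfra, which overlaps other annotated genes, is also a marker of oligodendrocyte precursors and fibroblasts.

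Genes of the Wnt7 signal to brain vessels were split, 4 rising and 4 falling of 15, with a median of 0.11. The ligand gene Wnt7b fell from 218 ± 13.5 to 141 ± 6.17 CPM (SD, n = 4 each), a log2 fold change of -0.63 ± 0.05 (SE), while Wnt7a was at 58.4 ± 2.92 and 58.6 ± 1.62 CPM and was not called. The co-receptor genes Lrp5 and Lrp6 went opposite ways, at -0.53 ± 0.04 and 0.26 ± 0.04, and Ndp, which encodes the Fzd4 ligand norrin, fell by 0.78 ± 0.11. The other rises were those of Tnfrsf19 by 0.61 ± 0.08, the Frizzled receptor gene Fzd6 by 0.49 ± 0.09 and Ctnnb1, which encodes beta-catenin, by 0.29 ± 0.03, and the other fall was that of the Wnt inhibitor gene Apcdd1 by 0.36 ± 0.13. The call of Apcdd1 was not stable. It was lost without any 1 intact replicate or deleted replicate 1 or 2 (edgeR adjusted p up to 0.118). Library totals only, upper quartile factors and leaving out the low-count filter also ended it. Adgra2 and Reck, which encode the endothelial co-receptors for Wnt7, were not called, at 0.11 ± 0.11 and 0.06 ± 0.06. Of 15 Notch, tip cell and arteriovenous genes tested, 4 rose and 2 fell, their median being 0.05 and their mean -0.05. Notch4, the endothelial Notch receptor gene, was at 15.3, 13.6, 14.6 and 16.4 CPM in the intact and at 23.1, 23.9, 25.7 and 22.2 CPM in the deleted libraries. The groups were apart, and its rise of 0.66 ± 0.07 (edgeR adjusted p = 3.12e-06) was above the value of each of the 10 vessel genes, a difference that was not tested. The ligand gene Jag2 fell by 0.74 ± 0.06, and Esm1, a tip cell gene near the lower end of detection, by 1.31 ± 0.44 from 0.586 ± 0.311 CPM. Esm1 was chosen after its values were seen, and its call was lost without intact replicate 4 or deleted replicate 2, 3 or 4. Wnt7b, Adgra2, Ctnnb1 and Fzd6 overlap other annotated genes.

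Oligodendrocyte precursors, which also carry Cspg4, had markers that went down. Of 8 such markers 7 fell and 0 rose (median -0.51). There was 1 rise by library totals only, by upper quartile factors and with a filter of CPM above 1 in 4 libraries. The same held without intact replicate 1 or 2 or deleted replicate 1. The falls numbered 6 or 7 in every alternative. They were led by Gpr17 at -2.50 ± 0.26 (SE), which overlaps another annotated gene. Their summed level was 220 to 234 CPM in the intact and 143 to 171 CPM in the deleted libraries. Their part in the value of Cspg4 was not tested.

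**Figure D4:**
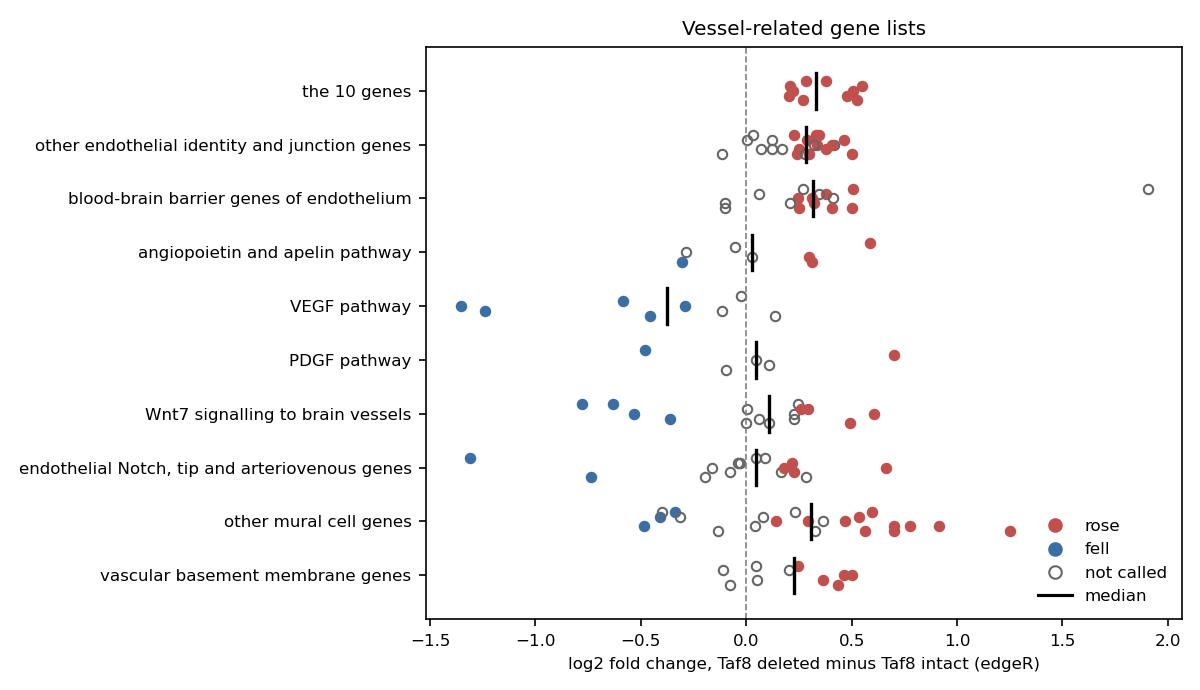
Log2 fold change, Taf8-deleted minus Taf8-intact, of each gene of the 10 and of 9 further lists (points, 1 per gene tested; filled where called by edgeR), with the median of each list. The 10 genes are all to the right of 0 with a median of 0.33, and the VEGF list lies mostly to the left with a median of -0.37.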

How the data were processed

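Polyadenylated RNA of 8 embryonic cortices was read as unstranded libraries. The authors deposited raw counts per gene, whole numbers without scaling, as 1 matrix with gene lengths in bases and as 8 separate lists identical to its columns. The submitters' processing notes name bcl2fastq 1.8.4, Subread 1.5.0, featureCounts and mm10 without their roles, and the annotation is not given in the sources used here. Symbols and positions were matched by gene ID to RefSeq on GRCm38.p6 (25275 of 27179 identifiers), and exon overlaps were taken from GENCODE M21. Identifiers without a symbol held 0.490% to 1.64% of the counts of a library and stayed in.

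Counts were tested in R 4.3.3 with edgeR 4.0.16 (filterByExpr, TMM factors of 0.971 to 1.03, robust quasi-likelihood test without covariates over all 8 libraries, Benjamini-Hochberg adjustment over 16074 genes, threshold 0.05). The standard error (SE) is the absolute log2 fold change over the square root of F. CPM use TMM-scaled totals, and FPKM divide them by the deposited length. A count of 0 allows up to 3 counts, or 0.0670 to 0.0758 CPM, for counting error only. The calculation was tested on simulated data. No 2 libraries of a group were within sampling noise (chi-square per gene of 4.22 to 14.6).

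The 10 genes and the lists were chosen with earlier results of these data known. Genes to name were drawn from the 10 genes, Taf8, of each list up to 4 called genes by smallest p and up to 2 that moved the other way, the ligands and receptors of the signalling lists, and 5 genes each most like the endothelial and the pericyte profile. Not all of these are described, and Kcnj8, Gucy1a1, Esm1, Col3a1, Acta2 and Myh11 are named outside this rule. The marker Hbb-bt was not matched, and Aldh1a2, Angpt4 and Bmx were under the count filter. Alternatives covered scaling, filters, DESeq2 1.42.0, limma 3.58.1 (voom), the replicate number as a block, and leaving out libraries.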

Additional observations from a re-analysis of the deposited data

Results flagged for a closer look

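In 14 of 212 groups of 4 libraries examined (6.60%), 1 library was far from the other 3; chance flags about 1 in 20. Among the 10 vessel genes this concerned Abcc9, which was at 22.4 CPM in intact replicate 4 and at 24.8 to 25.1 CPM in the other intact libraries. Among barrier genes, Abcg2 was at 19.1 CPM in intact replicate 4 against 16.1 to 16.6 CPM, and the summed barrier list was at 483 CPM in deleted replicate 4 against 549 to 559 CPM in the other deleted libraries.

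Among ligands, Vegfd was at 0.350 CPM in deleted replicate 1 against 0.224 to 0.227 CPM, and Pdgfd at 0.858 CPM in deleted replicate 3 against 0.569 to 0.590 CPM. Of the Wnt genes, Axin2 was at 46.6 CPM in intact replicate 1 against 48.6 to 48.9 CPM, Lef1 at 24.2 CPM in intact replicate 2 against 20.7 to 21.2 CPM, and Nkd1 at 34.1 CPM in intact replicate 3 against 59.9 to 62.3 CPM. Col1a2 was at 7.02 CPM in intact replicate 4 against 2.87 to 3.56 CPM, and the summed choroid plexus markers were at 301 CPM in that library against 14.9 to 20.3 CPM. In deleted replicate 1 the choroid plexus sum was 929 CPM against 14.9 to 158 CPM. Cx3cr1 was at 9.15 CPM in deleted replicate 3 against 7.71 to 7.83 CPM, Bcan at 47.3 CPM in intact replicate 4 against 59.8 to 61.9 CPM, and Pax6 at 180 CPM in deleted replicate 4 against 153 to 157 CPM.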

How the results depend on the processing

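Cldn5, Cdh5, Kdr, Flt1, Tek, Rgs5 and Abcc9 kept their direction and their call in all 21 alternatives, and the other 3 kept their direction. Pdgfrb lost its call in 11 of the 21, Cspg4 in 9 and Pecam1 in 4. The number of pericyte genes that rose was 2 in place of 4 with the replicate block, 2 without deleted replicates 2 and 3 and 2 without intact replicate 4 and deleted replicate 1, and ran from 2 to 4 when each library was left out in turn; the corresponding ranges were 5 to 6 for the endothelial genes and 7 to 10 for all 10. Without deleted replicates 2 and 3, 3 other endothelial and 7 other mural genes rose. The median log2 fold change of the 10 genes ran from 0.31 to 0.38 when each library was left out. With library totals only, 5892 genes were higher and 4417 lower over all genes. The median was then 0.39 for the 10 genes and 0.062 for all genes tested. Nkd1, at 0.00 in the main analysis, was called at -0.16 without intact replicate 3, the library where it was low, and otherwise ran up to 0.078 with 1 library left out. The replicate number pairs no samples by the labels: deviations of same-numbered libraries had correlations of -0.23, 0.0052, -0.00047 and -0.46, 0 of 8 libraries correlated best with their own number, and the replicate block left 8 of the 10 genes and 4605 higher and 5060 lower genes called. Whether the embryos of a group share a litter is not given, and p-values measure only the spread between these samples.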

Other observations

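The genes whose deviations from the group mean were most like those of the 6 endothelial genes, over 8 libraries and 12757 genes, were Pygb (Pearson r = 0.984), Vtn (0.983), Pnpla2 (0.982), Nid1 (0.981) and Ctsz (0.980). Of these, Vtn, which encodes vitronectin and is made by brain pericytes, rose from 10.3 ± 0.694 to 19.4 ± 4.12 CPM (SD, n = 4 each) in Taf8-deleted cortex, and Nid1, which encodes a basement membrane protein, also rose. Ctsz fell, with a log2 fold change of -0.20 (edgeR adjusted p = 0.00799). Pygb at 0.05 and Pnpla2 at -0.14 were not called (edgeR adjusted p = 0.287 and 0.117). For the 4 pericyte genes, over 12759 genes, they were the endothelial genes Kdr (0.990) and Egfl7 (0.971) together with Igsf10 (0.985), Wdr81 (0.973) and Col16a1 (0.964). These values describe 8 libraries that share their scaling, and were the highest of many.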
